A study of Mus musculus with 3 samples.

Results

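TNF ligands and TNF receptors were described in normal mouse thymus, where T cells develop. The members were all protein-coding genes of GENCODE M21 (GRCm38) whose symbol begins with Tnfsf or Tnfrsf and a number, together with Tnf, Lta, Ltb, Ltbr, Cd40, Cd40lg, Cd27, Cd70, Fas, Fasl, Ngfr, Edar and Eda2r. They came to 44 of the 52636 genes counted, 17 ligand genes and 27 receptor genes, and all 44 of the annotation were found. The study set lymphomas that lack Cic, the gene of the repressor capicua, against normal thymus of littermates, and only the normal side was analysed here. That side holds 3 RNA-seq libraries of C57BL/6 mice labelled Cic flox/flox that had received tamoxifen. The labels used here name no Cre for these mice and no age. The libraries are called thymus 1, 2 and 3 after their replicate numbers. With 1 group there is no contrast between conditions, so levels and the spread between thymi are given.

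TNF ligands are mostly trimeric membrane proteins that can be shed, and their receptors lack enzyme activity and signal through adaptors. Receptors with a death domain can start caspase cleavage, and the others recruit TRAF proteins that lead to NF-kB. In the thymus, developing T cells give lymphotoxin, RANK ligand and CD40 ligand to the epithelium, where RANK, CD40 and the lymphotoxin beta receptor take part in the growth of the medulla. CD27, 4-1BB, OX40 and GITR are costimulatory receptors of T cells.

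The libraries held between 25408442 and 30414788 reads that were assigned to genes. Levels within a gene are CPM, counts scaled to library size by TMM, and levels of different genes are compared only in RPKM, CPM per kilobase of merged exons. Errors are SDs over the 3 libraries. All 6 marker genes of double-positive thymocytes, the main cells of the labelled tissue, stood at 10 CPM or more in every library, the recombinase gene Rag1 among them at 4069 ± 169 CPM and Cd8a at 1827 ± 38.4 CPM. In such whole tissue, fewer cells of a type and less RNA per cell cannot be told apart.

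A total of 38 members, 12 ligand and 26 receptor genes, reached 1 CPM in every thymus, against 58.4% of 21896 protein-coding genes. Of these, 16 reached 10 CPM in every library, 2 ligand and 14 receptor genes. The share of all genes at that level was not taken, so this count has no background. Below 1 CPM in every library were 3 members, the ligand genes Tnfsf13 and Tnfsf18 and the receptor gene Tnfrsf23, and 3 lay on both sides of it, the ligand genes Cd70, Tnfsf4 and Tnfsf15. No member was without reads, since the lowest count in any library was 7, for Tnfsf13 in thymus 3. Only 10 members exceeded the median level of 7.26 RPKM over the 12778 protein-coding genes at 1 CPM or more in every library, 2 ligand and 8 receptor genes. The receptor genes together came to 361, 366 and 335 RPKM in thymus 1, 2 and 3, and the ligand genes to 142, 137 and 143 RPKM. The ratio of these sums was 2.51 ± 0.165 (SD, n = 3). It rests on few genes, since Ltb and Cd40lg gave 76.2% of the ligand sum and Cd27 gave 41.6% of the receptor sum.

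**Figure D1:**
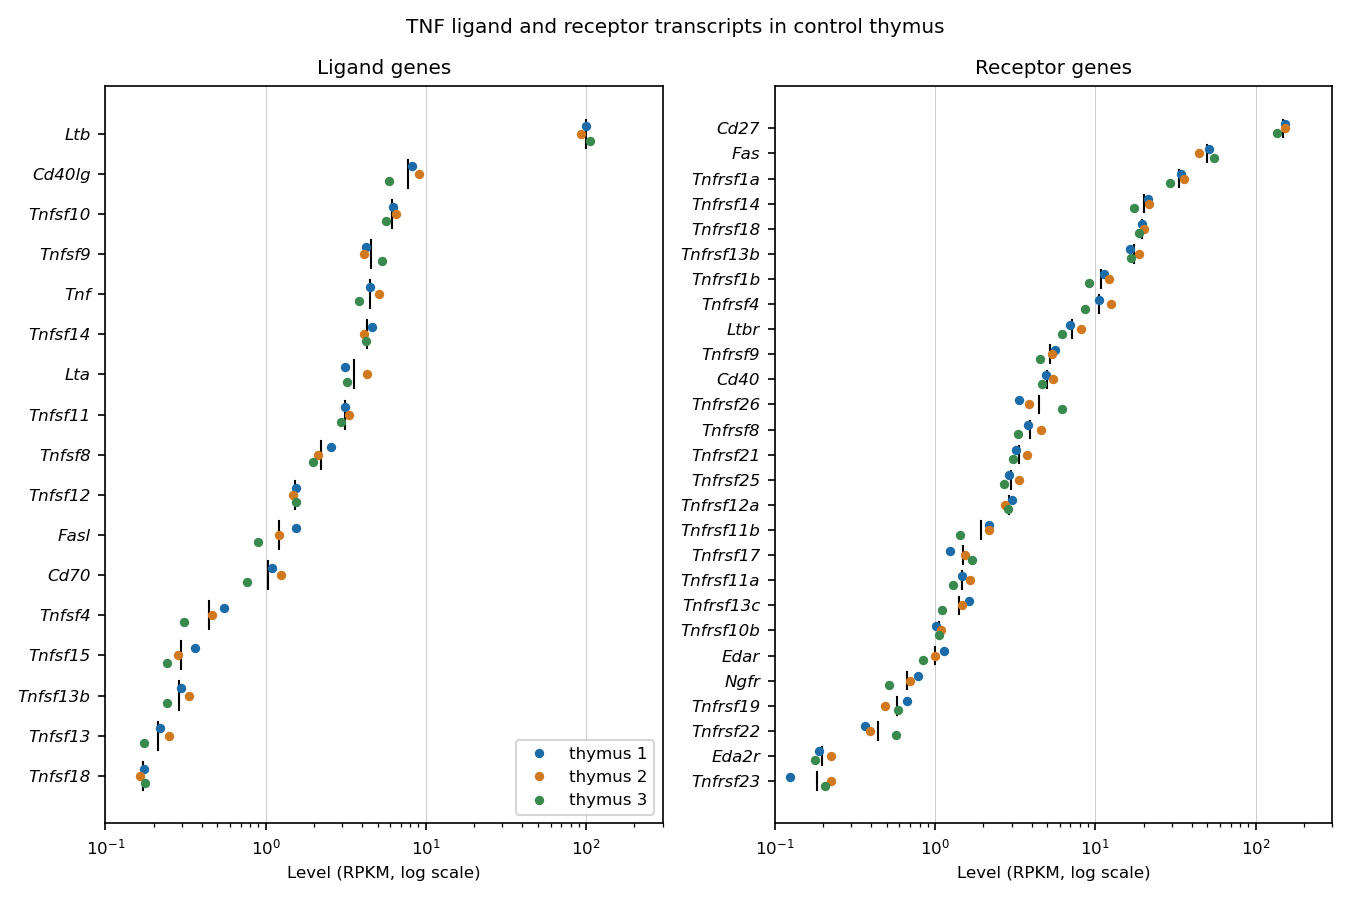
Level of each of the 17 ligand genes and 27 receptor genes in RPKM on a log scale, with a point per thymus and a bar at the mean. Ltb at 99.7 RPKM and Cd27 at 147 RPKM stand apart at the top of their panels, and the lowest genes lie near 0.2 RPKM.

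The 250 bases before the RefSeq start are shown for chosen genes of high, middle and low level. Ltb, Lta and Tnf are neighbours on chromosome 17, Cd27 and Fas lead the receptor genes, and Tnfsf18 and Tnfsf15 are ligand genes at the low end. The sequences are from RefSeq on GRCm38.p6, read 5′ to 3′ on the gene's strand, and end just before that start, which can differ from the GENCODE gene start by some bases. Capitals mark matches on either strand to TATAAA or to the kappaB consensus, the site family of NF-kB.
Ltb (chr17:35194257-35194506, plus strand): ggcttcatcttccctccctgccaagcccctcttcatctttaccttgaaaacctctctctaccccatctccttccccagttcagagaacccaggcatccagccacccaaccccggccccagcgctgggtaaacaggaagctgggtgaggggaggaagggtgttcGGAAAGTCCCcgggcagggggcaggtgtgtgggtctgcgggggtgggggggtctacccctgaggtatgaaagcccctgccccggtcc
Lta (chr17:35205352-35205601, minus strand): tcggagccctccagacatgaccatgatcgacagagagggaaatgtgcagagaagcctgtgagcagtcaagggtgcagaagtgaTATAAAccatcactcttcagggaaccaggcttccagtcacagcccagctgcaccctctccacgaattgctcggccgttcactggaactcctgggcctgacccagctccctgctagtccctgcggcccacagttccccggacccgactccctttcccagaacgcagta
Tnf (chr17:35202008-35202257, minus strand): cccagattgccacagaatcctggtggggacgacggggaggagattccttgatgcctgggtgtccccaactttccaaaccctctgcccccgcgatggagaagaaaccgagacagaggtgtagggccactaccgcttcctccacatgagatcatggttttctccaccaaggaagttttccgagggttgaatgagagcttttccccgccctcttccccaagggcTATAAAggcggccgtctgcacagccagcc
Cd27 (chr6:125237028-125237277, minus strand): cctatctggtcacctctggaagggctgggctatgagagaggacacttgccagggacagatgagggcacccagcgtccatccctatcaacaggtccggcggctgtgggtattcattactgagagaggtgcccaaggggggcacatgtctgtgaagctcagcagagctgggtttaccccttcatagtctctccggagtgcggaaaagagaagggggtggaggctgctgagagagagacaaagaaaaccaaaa
Fas (chr19:34290409-34290658, plus strand): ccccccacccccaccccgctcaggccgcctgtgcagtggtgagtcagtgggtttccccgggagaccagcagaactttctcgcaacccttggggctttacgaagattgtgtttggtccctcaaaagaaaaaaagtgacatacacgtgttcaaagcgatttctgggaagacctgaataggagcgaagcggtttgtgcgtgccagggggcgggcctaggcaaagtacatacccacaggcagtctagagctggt
Tnfsf18 (chr1:161494407-161494656, plus strand): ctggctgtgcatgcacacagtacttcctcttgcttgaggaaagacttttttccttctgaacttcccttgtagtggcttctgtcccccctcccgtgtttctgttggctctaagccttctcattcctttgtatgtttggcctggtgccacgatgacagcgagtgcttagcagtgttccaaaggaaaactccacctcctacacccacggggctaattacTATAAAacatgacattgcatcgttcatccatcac
Tnfsf15 (chr4:63745060-63745309, minus strand): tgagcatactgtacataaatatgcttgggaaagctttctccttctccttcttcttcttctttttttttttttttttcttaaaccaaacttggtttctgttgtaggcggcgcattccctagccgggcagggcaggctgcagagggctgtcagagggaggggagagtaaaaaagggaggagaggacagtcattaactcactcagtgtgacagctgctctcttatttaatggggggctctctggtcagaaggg
The Ltb window held a kappaB match on the other strand from 87 to 78 bases before the start. Tnf had TATAAA from 29 to 24 bases before its start, Tnfsf18 from 34 to 29 and Lta from 167 to 162. Neither motif was in these windows of Cd27, Fas or Tnfsf15. RefSeq gave windows for 34 of the 44 members, 38 windows in all. Of these, 18.4% held TATAAA, against 12.4% of 32851 windows of all genes, and 10.5% held the kappaB consensus, against 7.25%. The motifs do not overlap each other in the windows printed, and a match is a description of the letters only.

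Ltb stood far above the other lymphotoxin genes. Ltb (ENSMUSG00000024399), whose product anchors lymphotoxin in the membrane, was at 100.2, 93.2 and 106 RPKM in thymus 1, 2 and 3. That placed it at the 97.4th percentile of expressed protein-coding genes, and every other ligand gene was below 10 RPKM. Lta, the gene of the soluble partner chain, was at 3.11, 4.31 and 3.22 RPKM, highest in thymus 2. Tnf, the gene of the inflammatory cytokine TNF, was at 4.47, 5.11 and 3.81 RPKM, also highest in thymus 2. These genes lie within 10913 bases of chromosome 17 (Ltb 35194439 to 35196320, Tnf 35199381 to 35202007, Lta 35203165 to 35205351). Within libraries, Ltb exceeded Tnf 22.8 ± 4.80 times and Lta 28.9 ± 6.30 times (SD, n = 3). Tnfsf14, which encodes LIGHT, was at 4.60, 4.09 and 4.23 RPKM.

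Ltbr was below Ltb but above Lta and Tnfsf14 in every library. Ltbr, the lymphotoxin beta receptor gene, was at 6.99, 8.10 and 6.23 RPKM, or 0.0718 ± 0.0141 times Ltb within libraries. Tnfrsf14, which encodes HVEM, the other receptor of LIGHT, was at 21.2, 21.5 and 17.6 RPKM, 4.67 ± 0.557 times Tnfsf14. Of the TNF receptor genes, Tnfrsf1a, whose product has a death domain, was at 34.4, 35.7 and 29.4 RPKM, and Tnfrsf1b, which lacks one, at 11.3, 12.2 and 9.18 RPKM. Both were lowest in thymus 3, and their ratio held at 3.06 ± 0.147.

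RANK and CD40 ligand genes were modest and exceeded their signalling receptors. Cd40lg was at 8.19, 9.04 and 5.87 RPKM, lowest in thymus 3. Its receptor gene Cd40 was at 4.95, 5.48 and 4.63 RPKM, 0.666 ± 0.106 times Cd40lg. Tnfsf11, the RANK ligand gene, was at 3.14, 3.32 and 2.94 RPKM, and its values differed by less than their counting noise. Tnfrsf11a, the RANK gene, was at 1.47, 1.66 and 1.29 RPKM, 0.470 ± 0.0300 times Tnfsf11. Tnfrsf11b, the gene of the soluble decoy osteoprotegerin, was at 2.17, 2.19 and 1.44 RPKM, so thymus 3 stood below the other two. Medullary epithelial markers were in the libraries too, with Aire at 27.0 ± 4.68 CPM and 4 of 5 such genes at 10 CPM or more in every library.

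Costimulatory receptor genes were mostly above their ligand genes. All 6 receptor genes reached 1 CPM in every library, and 2 of the 6 ligand genes did, Tnfsf8 and Tnfsf9. Cd27 (ENSMUSG00000030336), the gene of the receptor of CD70, had the highest level of all members at 152, 153 and 137 RPKM, the 98.5th percentile of expressed protein-coding genes. Its ligand gene Cd70 was at 1.09, 1.25 and 0.770 RPKM, resting on 28, 31 and 16 reads. Cd27 exceeded Cd70 by 146 ± 28.6 times.

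Tnfrsf18, the GITR gene, was at 19.5, 20.1 and 18.8 RPKM, and Tnfrsf4, the OX40 gene, at 10.5, 12.5 and 8.64 RPKM. These receptor genes are neighbours on chromosome 4, 9551 bases apart. Their ligand genes Tnfsf18 and Tnfsf4 were at 0.175, 0.165 and 0.176 RPKM and at 0.552, 0.462 and 0.308 RPKM, and are also neighbours, on chromosome 1, with 76244 bases between them. The small SD of Tnfsf18 rests on 11, 10 and 9 reads, a spread under counting noise. Tnfrsf18 exceeded Tnfsf18 by 114 ± 7.97 times and Tnfrsf4 exceeded Tnfsf4 by 24.7 ± 4.96 times. Tnfrsf18 shares 18.7% of its 50-base stretches with Gm16008, a gene annotated on the other strand, and its unstranded counts of 571, 604 and 450 were below its own-strand counts of 907, 902 and 708. Both receptor genes are markers of regulatory T cells. Of the 4 other such markers, Foxp3 was at 0.672 ± 0.114 RPKM, Ctla4 at 4.48 ± 0.496, Il2ra at 9.39 ± 1.56 and Ikzf2 at 12.7 ± 1.37 RPKM.

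Other costimulatory pairs were closer. Tnfrsf9, the 4-1BB gene, was at 5.61, 5.39 and 4.54 RPKM and its ligand gene Tnfsf9 at 4.22, 4.09 and 5.34 RPKM. The receptor gene was the higher in thymus 1 and 2 and the lower in thymus 3, so the order was not the same in every library. Tnfrsf8, the CD30 gene, was at 3.78, 4.59 and 3.31 RPKM, and its ligand gene Tnfsf8 at 2.55, 2.14 and 1.99 RPKM. Tnfrsf25, the DR3 gene, was at 2.88, 3.36 and 2.69 RPKM, and Tnfsf15, which encodes its ligand TL1A, at 0.363, 0.285 and 0.242 RPKM. In both pairs the receptor gene was the higher in every library.

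**Figure D2:**
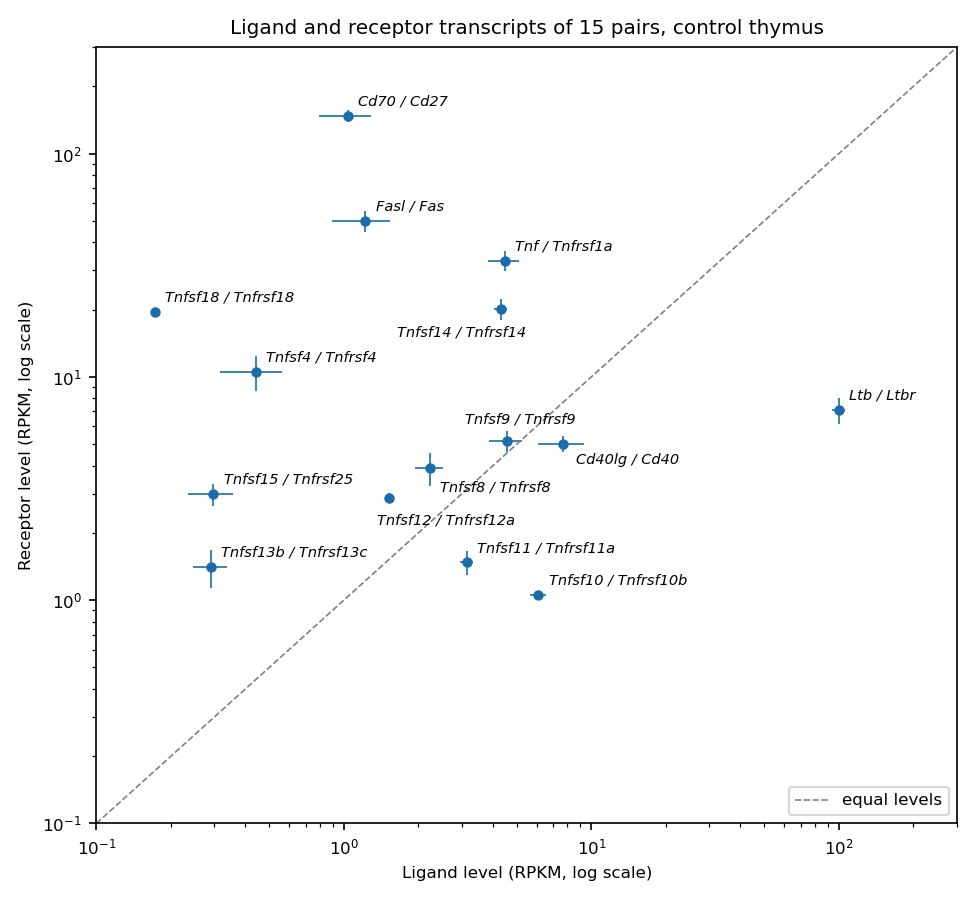
Mean level of the ligand gene (x axis) against that of a main receptor gene (y axis) for 15 pairs in RPKM on log scales, with SDs over 3 thymi as error bars and the line of equal levels dashed. In 10 pairs the receptor gene was the higher in every thymus, in 4 pairs (Ltb, Cd40lg, Tnfsf11 and Tnfsf10) the ligand gene was, and Tnfsf9 with Tnfrsf9 lay on both sides. Tnfsf12 with Tnfrsf12a is among the 10 over all exons only. Over unshared exon bases the Tnfsf12 mean was 2.95 RPKM, beside 2.88 for Tnfrsf12a.

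Death receptor genes were led by Fas, whose product starts apoptosis of lymphocytes. Fas (ENSMUSG00000024778) was at 51.0, 44.3 and 54.9 RPKM, lowest in thymus 2, and its ligand gene Fasl at 1.54, 1.21 and 0.899 RPKM. Fasl values stand on 91, 69 and 43 reads and were lowest in thymus 3. Fas exceeded Fasl by 43.6 ± 15.2 times. For TRAIL the order was the reverse. Tnfsf10, the TRAIL gene, was at 6.21, 6.49 and 5.63 RPKM, and its death receptor gene Tnfrsf10b at 1.01, 1.09 and 1.06 RPKM, 0.173 ± 0.0136 times Tnfsf10. Per kilobase of the longest transcript the ratio of the means was 0.281. Tnfrsf21, which encodes DR6, was at 3.21, 3.77 and 3.06 RPKM.

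BAFF and APRIL receptor genes, best known from B cells, were unequal. Tnfrsf13b, the TACI gene, was at 16.4, 18.7 and 16.8 RPKM. Tnfrsf13c, the BAFF receptor gene, was at 1.63, 1.48 and 1.11 RPKM, and Tnfrsf17, the BCMA gene, at 1.25, 1.55 and 1.69 RPKM. Tnfrsf13b exceeded Tnfrsf13c by 12.6 ± 2.56 times within libraries. The ligand genes Tnfsf13b (BAFF) and Tnfsf13 (APRIL) averaged 0.290 ± 0.0454 and 0.214 ± 0.0385 RPKM.

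Tnfsf13 and Tnfsf12, the TWEAK gene, lie 465 bases apart on chromosome 11. On their own strand they share 983 and 731 exon bases with the read-through gene Tnfsfm13, and reads there are ambiguous in such counting. Over their unshared exon bases the means were 0.537 RPKM for Tnfsf13 and 2.95 RPKM for Tnfsf12, against 1.54, 1.48 and 1.55 RPKM for Tnfsf12 over all exons in thymus 1, 2 and 3. Its receptor gene Tnfrsf12a was at 3.02, 2.73 and 2.87 RPKM. Per kilobase of the longest transcript Tnfrsf12a averaged 5.65 and Tnfsf12 1.61, so the distance between them depends on the length used. Their order does too, since Tnfsf12 over its unshared exon bases was at 2.95 RPKM, beside a mean of 2.88 for Tnfrsf12a. The receptor genes of ectodermal and neural tissue were low, with means of 0.995 RPKM for Edar, the ectodysplasin receptor gene, 0.667 for Ngfr (the p75 neurotrophin receptor), 0.581 for Tnfrsf19 and 0.198 for Eda2r.

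Some members that lie together differed in level. With gaps of at most 100000 bases, 22 members fell into 9 such groups. On chromosome 6, Cd27 (125232622 to 125237010), Ltbr (125306571 to 125313885) and Tnfrsf1a (125349362 to 125362484) averaged 147, 7.10 and 33.2 RPKM. Cd27 was 20.9 ± 1.74 times Ltbr within libraries. The neighbours Tnf and Lta on chromosome 17 were closer, with means of 4.46 and 3.55 RPKM.

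Variation between thymi was tested for 43 members, all but Tnfsf13, which had too few reads. By edgeR's quasi-likelihood test, which asks whether a gene varies more than others of its abundance, 0 of 43 passed an adjusted threshold of 0.05, against 0.0604% of 16548 genes tested. At an unadjusted p under 0.05 there was 1, Tnfrsf26, which is 2.33% of the members tested, beside 731 or 4.42% of all genes. DESeq2's dispersion outliers held 0 members, beside 81 of all genes tested. A goodness of fit test of the negative binomial fit called 0 as well, beside 0.737% of all genes. Against counting noise alone (Poisson goodness of fit in edgeR), 20 members passed, 46.5% of those tested, beside 43.4% of all genes tested. The labels do not say that each library came from its own animal, so these p-values speak for the spread of the samples, which may be technical.

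The median coefficient of variation of the members tested was 13.2%, against 9.06% over all genes tested. The members were also lower, with a median of 7.003 CPM against 18.8 CPM, and counting noise is larger at low counts. Set against the genes of their own abundance bin, 32 of 43 lay above the bin's median, 12 ligand and 20 receptor genes. Only 4 of the 43 lay above the bin's 90th percentile. The least variable were Tnfsf12, at 2.37%, Tnfrsf18, at 3.40%, and Tnfsf18, at 3.68%. Counting noise alone gives 12.4% for Tnfsf12, 3.45% for Tnfrsf18 and 31.6% for Tnfsf18, all above these values, so their rank shows no steadiness. The most variable were Tnfrsf26, at 34.2%, Tnfrsf23, at 28.6%, and Tnfsf4, at 28.04%. Tnfrsf23 was at 0.124, 0.223 and 0.205 RPKM and rests on 15, 26 and 20 reads. Tnfsf4 rests on 31, 25 and 14 reads.

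**Figure D3:**
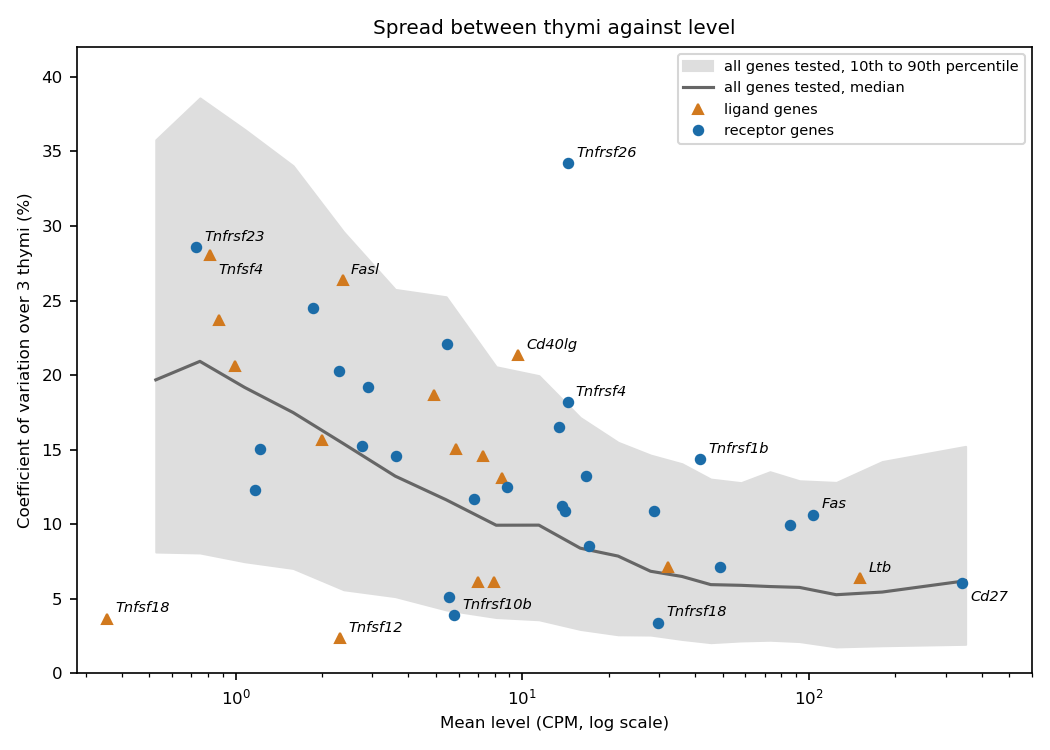
Coefficient of variation over 3 thymi in percent against mean CPM on a log scale for the 43 ligand and receptor genes tested, with the median and the 10th to 90th percentile of all genes tested in bins of abundance. Tnfrsf26, at 34.2% and 14.4 CPM, stands well above the band, while Ltb, at 6.38%, and Cd27, at 6.08%, lie inside it.

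Thymus 3 was the low library for most members. Of the 43 tested, 28 (65.1%) were lowest in thymus 3, against 39.6% of all genes tested, and their median deviation from the gene mean was −0.12 in log2 there, 0.08 in thymus 2 and 0.01 in thymus 1. The count was 28 of 42 with DESeq2 size factors, where 38.4% of all genes were lowest in thymus 3. With library totals it was 32 of 43, beside 50.2% of all genes. The libraries also differ in a trend with GC content, and with it removed the count was 28, beside 38.7% of all genes. Of the 20 members that varied beyond counting noise, 15 were lowest in thymus 3, which is 75% of them, beside 40.4% of the 7188 genes of all kinds that did so. Without thymus 3, 6 of 44 members passed that test, 13.6% beside 22.3% of all genes. Without thymus 2 there were 13 of 42, 31.0% beside 26.2%, and without thymus 1 there were 20 of 42, 47.6% beside 39.7%.

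Cd27 was one of these 15. It had 354, 356 and 319 CPM in thymus 1, 2 and 3 (Poisson goodness of fit, edgeR, adjusted p = 3.14e-14, and 0.862 without thymus 3). Tnfrsf1b had 43.0, 46.7 and 35.05 CPM, and Cd40lg had 10.2, 11.3 and 7.33 CPM. Ltb and Fas did not follow, with 161 and 113 CPM in thymus 3, their highest values. Both varied beyond counting noise with any 1 library left out, and neither varied more than the trend (edgeR quasi-likelihood, adjusted p = 0.990 and 0.984).

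Of 12 marker lists of cell types, 6 had their lowest sum in thymus 3 and 3 had their highest sum there. Over all genes tested, 39.6% were lowest in thymus 3. All 5 medullary epithelial markers were lowest there, with a sum of 189 CPM, beside 222 and 251 in the other two, and so were all 4 dendritic cell markers (43.5 CPM, beside 65.4 and 60.1). All 5 macrophage markers (279.8 CPM, beside 321 and 298), all 4 of natural killer and innate-like T cells (22.4 CPM, beside 29.1 and 25.1) and all 3 of endothelium (97.8 CPM, beside 109 and 121) were also lowest in thymus 3. Some ranks were near ties, with Adgre1 at 27.57 and 27.47 CPM in thymus 2 and 3, and Krt14 at 34.45 and 34.28. Against counting noise alone (Poisson goodness of fit, edgeR), 4 of 5 medullary and 4 of 4 dendritic cell markers passed. So did 4 of 5 macrophage, 2 of 3 endothelial and 1 of 3 tested natural killer and innate-like T cell markers. By edgeR's quasi-likelihood test, 0 markers of these lists varied more than the trend. No marker of these lists had 0 reads in any library, and the part of these cells in the low member values was not tested. The 6 double-positive thymocyte genes summed to 9234, 9012 and 9296 CPM in thymus 1, 2 and 3, highest in thymus 3. Singly, 2 of these 6 were highest in thymus 3 and 1 was lowest there. The cortical epithelial sum, unlike the medullary one, was also highest in thymus 3, at 1834, 1842 and 2031 CPM over 4 genes. Of these 4, 2 were highest in thymus 3 and 1 was lowest there. The 3 erythroid genes, which differed between thymi beyond the trend, summed to 830, 37.2 and 179 CPM.

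**Figure D4:**
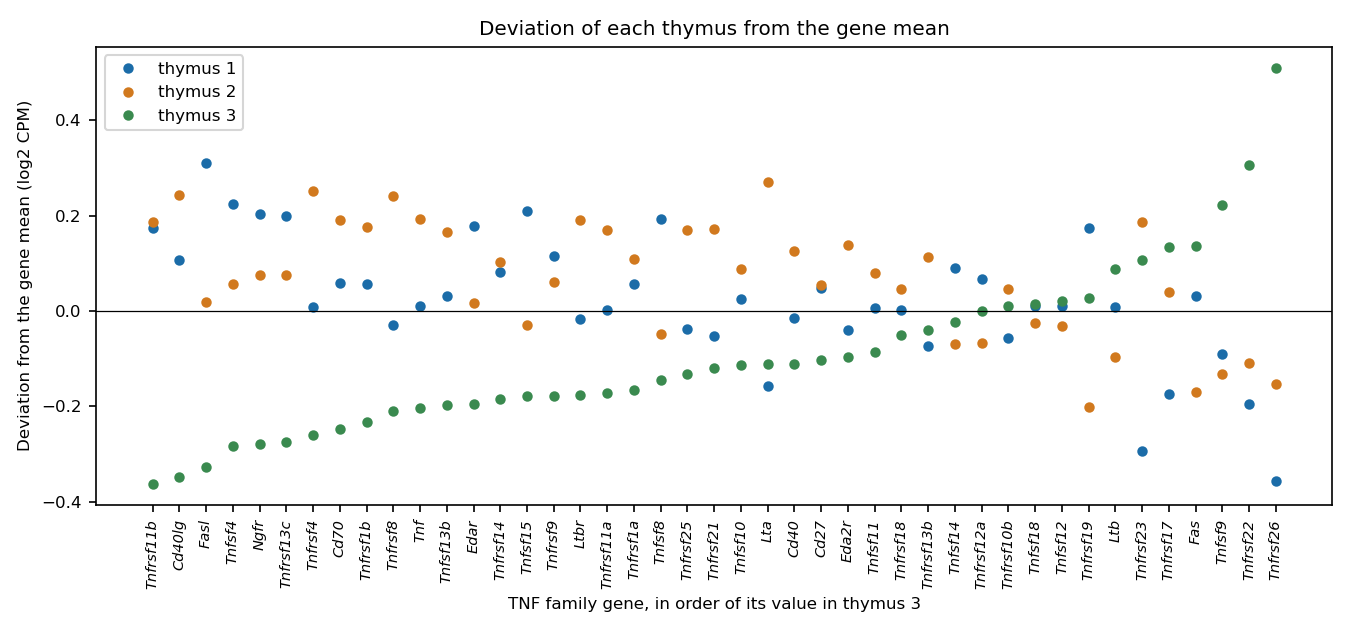
Deviation of each thymus from the gene mean in log2 CPM (pseudocount 0.5) for the 43 ligand and receptor genes tested, in the order of their value in thymus 3. Most points of thymus 3 lie below 0, with Tnfrsf26 at the far right at 0.51.

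Tnfrsf26 (ENSMUSG00000045362) stood apart in the opposite direction. It encodes a decoy-like receptor and lies on chromosome 7 (143607659 to 143628722) beside Tnfrsf22 and Tnfrsf23, genes of TRAIL decoy receptors in the mouse. Tnfrsf26 was at 10.7, 12.4 and 19.97 CPM in thymus 1, 2 and 3, so thymus 3 was the high library. It varied beyond counting noise (Poisson goodness of fit, edgeR, adjusted p = 3.21e-18) but not beyond the trend (quasi-likelihood, adjusted p = 0.984). With no filter on low counts the quasi-likelihood test called it, as the only member, with an adjusted p of 0.0193 in edgeR. That setting called 285 of 30857 genes, beside 10 of 16548 with the filter. Without thymus 3 its Poisson adjusted p in edgeR was 0.169.

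Tnfrsf22 was at 1.54, 1.67 and 2.39 CPM, and Tnfrsf23 at 0.492, 0.885 and 0.810 CPM. Per kilobase, Tnfrsf26 exceeded Tnfrsf22 by 9.94 ± 0.930 times. Over 50-base stretches, 27.4% of Tnfrsf22 and 19.3% of Tnfrsf23 recur in transcripts of other genes, mainly in each other, and multimapping reads were dropped, so both levels are uncertain. The neutrophil markers were also highest in thymus 3, all 3 of them, with a sum of 36.1 CPM there, beside 17.5 and 13.6 CPM, and their part in Tnfrsf26 was not tested.

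Reads on the opposite strand were frequent at these decoy genes. They made up 50.5% to 65.7% of the stranded reads of Tnfrsf22 per library and 36.6% to 64.3% of those of Tnfrsf23, but 0.305% to 1.40% of those of Tnfrsf26. Over all genes the share was 3.37% to 3.44% per library. Opposite-strand reads at Tnfrsf22 came to 2.56, 1.70 and 4.58 CPM, highest in thymus 3. E230032D23Rik, a gene annotated on the other strand whose exons overlap 107 bases of Tnfrsf26 and 164 bases of Tnfrsf23, was at 2.20, 1.74 and 4.74 CPM, also highest in thymus 3.

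**Figure D5:**
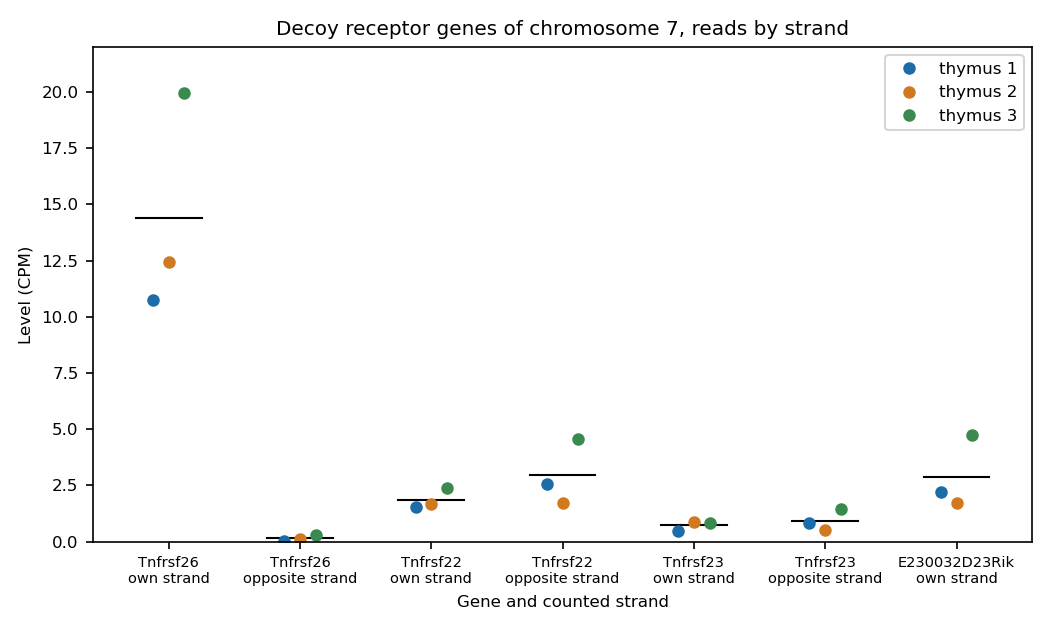
Level in CPM of reads on the own and the opposite strand of the 3 decoy receptor genes of chromosome 7, and of E230032D23Rik, with a point per thymus and a bar at the mean. Tnfrsf26 reads fall almost wholly on its own strand, at 14.4 CPM on average, while those of Tnfrsf22 average 1.87 CPM on its own and 2.95 CPM on the opposite strand.

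Genes that act below the receptors were mostly abundant. A list of 35 adaptor, ubiquitin, kinase and NF-kB genes with the family genes Eda and Relt was tested in full. All but Mlkl and Eda of these 37 genes, 35 in number, reached 10 CPM in every library. The median level was 14.5 RPKM, beside 7.26 RPKM over the protein-coding genes at 1 CPM or more in every library. The highest were Nfkbia, the NF-kB inhibitor gene, at 129 ± 1.19 RPKM, the linear ubiquitin ligase gene Rbck1 at 45.8 ± 1.001, the adaptor gene Traf4 at 41.3 ± 1.76, the inhibitor of apoptosis gene Birc2 at 40.5 ± 3.62, the kinase adaptor gene Tab2 at 32.6 ± 0.590 and the deubiquitinase gene Otulin at 26.6 ± 0.283 RPKM. Of the 37, 0 varied more than the trend by edgeR's quasi-likelihood test (0.0604% of all genes), and 0 had an unadjusted p under 0.05 (4.42% of all genes). Neither DESeq2's dispersion outliers nor the negative binomial test called any (0 each), beside 81 and 122 of all genes tested. Against counting noise alone 17 of the 37 passed, 45.9% beside 43.4% of all genes. Their median coefficient of variation was 4.05%, and 11 of 37 lay above the median of their abundance bin. Relb, an NF-kB subunit gene of the pathway below Ltbr, RANK and CD40, was at 37.9, 42.2 and 31.4 CPM, lowest in thymus 3. The whole list did not share that order. Map3k14 was at 37.6, 45.2 and 39.2 CPM, lowest in thymus 1, and Birc2 was highest in thymus 3. The median deviation of the 37 genes from the gene mean was −0.03 in log2 in thymus 3, beside −0.005 over all genes tested.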

How the data were processed

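RNA of normal thymus was sequenced in 3 libraries with the TruSeq Stranded mRNA kit, per the labels' protocols. Each deposited file holds unnormalized read counts of 1 library in 3 columns (either strand, gene strand, reverse strand). The submitters' processing notes name STAR 2.5.3a, DESeq2 and GRCm38. Lines for reads outside genes match STAR's gene counts, where multimapping reads form a class of their own. For the annotation release, trimming and filters, the sources used here give nothing.

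The reverse-strand column was used, since its total was the higher. Lines that name no gene entered no library size or test. Reads assigned to genes were 66.4% to 69.1% of all, and multimapping reads 13.9% to 15.6%. Of 52636 identifiers 52489 matched GENCODE M21 without version. R 4.3.3, edgeR 4.0.16, limma 3.58.1 and DESeq2 1.42.0 were used. Genes kept by filterByExpr (minimum count 10, minimum total 15) numbered 16548, and TMM factors were 1.002, 1.03 and 0.971. The quasi-likelihood test fitted an intercept only and set each gene's quasi-dispersion over the trended prior against F (5.24 prior degrees of freedom, one-sided). P-values were Benjamini-Hochberg adjusted over all genes tested, with a threshold of 0.05. A level of 3 counts lies between 0.0985 and 0.122 CPM, which covers counting error only. The 50-base stretches came from GENCODE transcripts, and the GC trend was removed by lowess (span 0.3).

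Members, lists, roles and tests were chosen with earlier results of these data known. Named with each library were the 8 ligand and 10 receptor genes highest in RPKM, the 3 most and 3 least variable members, and members more variable than the trend. Further members were named to complete a pair or neighbourhood, some by their mean and SD. Alternatives covered the unstranded column, scaling, filter, prior, test, gene length, detection mark and each library left out. The values of 1 of the marker lists with its lowest sum in thymus 3 are not reported here.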

Additional observations from a re-analysis of the deposited data

Results flagged for a closer look

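Reads in the gene-strand column enter no gene's own level above and are given only as opposite-strand reads. At 4 members they exceeded both the 3 counts that a count of 0 allows and the share over all genes in every library. Tnfrsf22 had 78, 50 and 113 such reads in thymus 1, 2 and 3, and Tnfrsf23 had 25, 15 and 36. Tnfrsf10b had 13, 12 and 14, which is 6.42% to 8.92% of its stranded reads. Tnfsf9 had 6, 7 and 7, 3.49% to 4.32%, and shares 192 exon bases with Gm11110 on the other strand. There is no further group, so no difference between groups could be compared, and groups of 3 are too small for a test of single outlying samples.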

How the results depend on the processing

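No paired analysis was possible because there is only 1 group. The number of members at 1 CPM or more was 38 without any 1 library, and 16 reached 10 CPM. The count of members more variable than the trend was 0 in every alternative run except with no filter on low counts, where it was 1 (Tnfrsf26), and the signalling genes had 0 in all of them. Over all genes that count was 10, and it was 20 with library totals, 285 with no filter, 81 as DESeq2 dispersion outliers, 122 by the negative binomial goodness of fit, and 23 to 137 with 1 library left out. Members beyond counting noise numbered 6 to 20 with 1 library left out, 13 of them without thymus 2 and 6 without thymus 3, so these calls rest largely on thymus 3. The median coefficient of variation ranged from 8.47% (without thymus 3) to 14.9%. The ratio of receptor to ligand sums was 3.17 per kilobase of the longest transcript, and 2.54 with shared exon bases left out. That setting, the GC correction and the settings for counts lowest in thymus 3 were chosen after seeing the data. On the longest transcript the 3 leading ligand genes and the 3 leading receptor genes kept their order, while Tnfrsf18 and Tnfrsf14 changed places, as did Tnfrsf4 and Tnfrsf1b. On that scale 2 members moved by over 1.5 times, Tnfrsf12a to 5.65 from 2.88 and Tnfrsf10b to 1.81 from 1.06 per kilobase. The cause of these shifts was not tested. Levels below about 1 CPM rest on few reads, and their order is not resolved at this depth.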
